A study of Drosophila melanogaster with 2 samples.

Results

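The 9 genes bam, bgcn, mei-P26, Sxl, stwl, Rbfox1, pelo, otu and ovo, which drive or restrain differentiation of female germline stem cells and their cysts in Drosophila melanogaster, were followed in RNA recovered from ovary lysate by immunoprecipitation. They were listed by symbol, for their known roles and not by a threshold on their values, although earlier results of these data were known, and all 9 were found among the 17720 genes of each deposited table. Ovaries were from wild-type Oregon-R females under 12 hours after eclosion, about 200 females per precipitation, and a single lysate was divided between an antibody against Lsd1 and a control antibody. The control library is titled IgG-RIP, although the antibody in its label is directed against GFP, and the other, titled Lsd1-RIP, is called the Lsd1 library. Both libraries therefore share strain, age and lysate and differ in the antibody, and there was 1 library per group, with no replicate. No test between the libraries was possible, so the values below are descriptions of these 2 libraries.

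Germline stem cells sit at the tip of the ovary against somatic niche cells, whose BMP signal keeps bam transcriptionally off. A daughter that leaves the niche switches bam on, becomes a cystoblast, and divides into a cyst of interconnected cells, 1 of which becomes the oocyte. Bam, Bgcn, Mei-P26 and Sxl act on RNA to lower stem cell factors such as Nanos. Otu and Ovo, Rbfox1, Stwl and Pelo act before, beside or after this switch. Lsd1, a histone demethylase, is known in this tissue for a role in the somatic escort cells that surround differentiating germ cells.

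Levels are given as FPKM, fragments scaled by transcript length and library size, with the lower and upper bound that the authors deposited for each value. An approximate number of fragments was derived from those bounds. It came to 1039524 over all listed genes other than ribosomal RNA loci in the control library and 1201797 in the Lsd1 library. The ratio between libraries is the log2 fold of Lsd1 over control after adding 1 to each FPKM, with an interval of 2 standard errors either way from the bounds, which covers counting error and at most some uncertainty of isoform assignment. Genes with a mean FPKM of at least 1 and an estimate in both libraries are called eligible, and there were 6025. Their median ratio was 0.32, with the middle 50% between 0.13 and 0.52, so a gene at 0.32 is at the centre of these libraries. The germline markers vas, nos, osk, orb, aub and bru1 were at 5.84 FPKM or more in both libraries. Follicle cell markers reached 131 FPKM and muscle sheath markers 62.8, while the highest fat body, neuron or hemocyte value was 0.41 FPKM.

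On the FPKM + 1 scale, mei-P26 was above 96.7% of eligible genes, otu above 96.2% and ovo above 96.0%, and pelo lay at the all-gene median. By plain FPKM ratio these 3 were above 92.4%, 88.1% and 89.6% of eligible genes listed above 0 in both libraries, and bam above 94.1%. Sxl, Rbfox1 and stwl lay nearer the centre on the FPKM + 1 scale, and bgcn was too rare to be placed. Rbfox1 was above 79.7% by plain ratio and above 86.5% by approximate fragments. With 1 added to each FPKM, 0 of the 8 eligible members were at least 2-fold higher in the Lsd1 library and 0 at least 2-fold lower. Of all eligible genes, 2.12% were higher by that measure and 0.697% lower. The median over the 8 was 0.53 beside 0.32 over all eligible genes. bam is among the 8 only through its value in the Lsd1 library. The 8 eligible members were each above the all-gene median, where 50% of genes lie by construction, but 7 of 8 were above it with no pseudocount, by approximate fragments, or less the median of genes of like length or level. By fragments the member below it was Sxl.

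**Figure D1:**
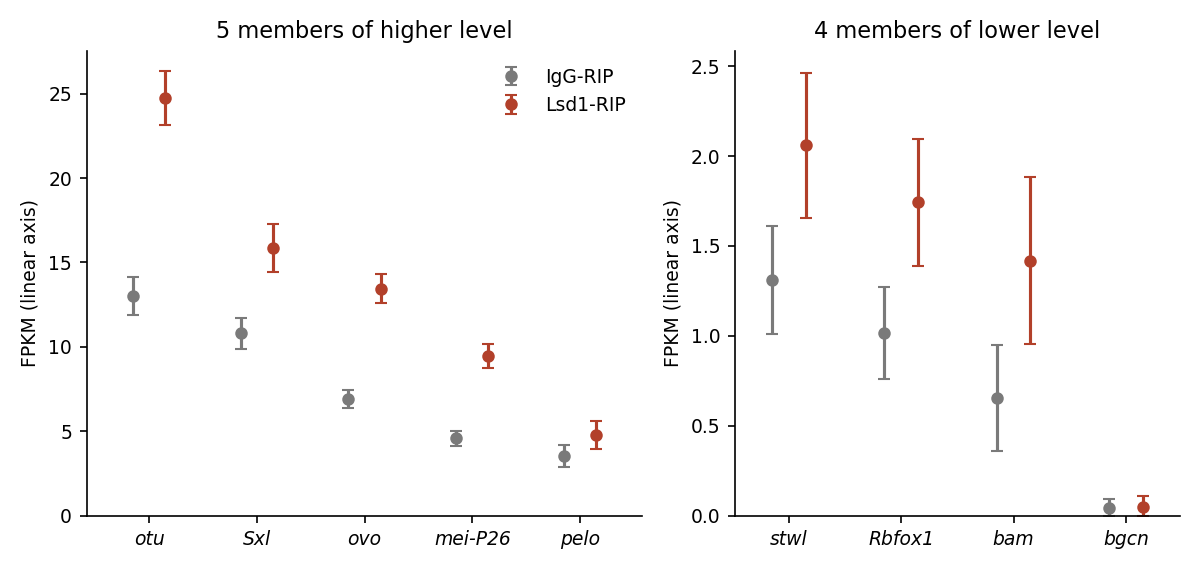
FPKM of the 9 members in the IgG-RIP (grey) and Lsd1-RIP (red) libraries on linear axes, with the 5 of higher level on the left and the 4 of lower level on the right. Points are the deposited values of 1 library each and bars run from the deposited lower to the upper bound, which are apart for every gene but pelo and bgcn.

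The members spanned a wide range of levels, in the same order in both libraries: otu, Sxl, ovo, mei-P26, pelo, stwl, Rbfox1, bam and bgcn. In the control library otu, at 13.0 FPKM, was above 93.3% of the genes listed above 0 and bam, at 0.65, was above 32.3%. Neither library holds RNA of the lysate before precipitation. From whole-ovary lysate, a low level from few cells, from little RNA per cell or from poor recovery cannot be told apart. The order rests on overlapping bounds in places. stwl and Rbfox1, and Rbfox1 and bam, had bounds that overlapped in both libraries, and mei-P26 and pelo in the control library. Per unit of length, bam was 16.0 times the level of bgcn in the control library and 29.7 times in the Lsd1 library. bgcn rests on about 2.44 fragments in each library with a lower bound of 0 FPKM, so neither ratio has an upper limit.

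The Bam group came first in the order of roles. bam (bag of marbles, FBgn0000158, dm6 3R:25243039-25245109) encodes the factor that is both necessary and sufficient for the stem cell daughter to differentiate. Its FPKM was 0.65 (bounds 0.36 to 0.95) in the control library and 1.42 (0.95 to 1.88) in the Lsd1 library. The bounds of the libraries are apart by less than 0.01 FPKM, from 0.948 to 0.953. These levels rest on 19.9 and 37.1 approximate fragments. The plain ratio was 2.17, the highest of the 9, with an interval from 1.24 to 3.78. Adding 1 to such low values shrank it to a log2 ratio of 0.55 (interval 0.17 to 0.93), above 77.6% of eligible genes. Without the added 1, its log2 ratio of 1.12 was above 94.1% of the 5964 eligible genes listed above 0 in both libraries. bam reached the minimum mean of 1 FPKM, with a mean of 1.04, only through its value in the Lsd1 library.

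bgcn (benign gonial cell neoplasm, FBgn0004581, 2R:23853270-23858921) encodes the RNA-binding partner that Bam needs. It was nearly absent from both libraries, at 0.041 FPKM (0 to 0.093) and 0.048 FPKM (0 to 0.11). About 2.44 fragments stood behind each value, and the plain ratio of 1.17 had an interval from 0.19 to 7.13. bgcn was the only member below the minimum mean FPKM, so bam lay just inside it and bgcn far outside. The gene Pym lies within the bgcn locus, and had 2.14 FPKM in the control library and 3.91 in the Lsd1 library, far above bgcn in both.

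mei-P26 (FBgn0026206, X:9163255-9189309) encodes a TRIM-NHL protein that joins Bam, Bgcn and Sxl on target mRNAs and limits growth of dividing cysts. It had 4.59 FPKM (4.15 to 5.04) in the control library and 9.48 (8.76 to 10.2) in the Lsd1 library, well apart. The log2 ratio was 0.91 (interval 0.75 to 1.06), the highest of the 8 eligible members, above 96.7% of eligible genes. The plain ratio was 2.06 (1.82 to 2.33), from 424 and 698 approximate fragments.

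Sxl (Sex lethal, FBgn0264270, X:7074550-7098053) encodes the RNA-binding switch of female identity, which in the germline is needed for stem cell daughters to differentiate. Its FPKM was 10.8 (9.90 to 11.7) in the control library and 15.9 (14.4 to 17.3) in the Lsd1 library. The log2 ratio was 0.51 (interval 0.35 to 0.68), above 73.8% of eligible genes. By approximate fragments the direction turned: 553 in the control library against 497 in the other, a log2 ratio of -0.36 after scaling by the library totals, which is above only 17.3% of genes. The FPKM and fragment ratios, each set against its own all-gene median, differed 1.39-fold for Sxl and at most 1.11-fold for every other member. RefSeq lists 25 transcripts for Sxl and at most 9 for any other member, and bounds on genes of many isoforms may hold uncertainty of assignment as well as counting error. The part of isoforms in this difference was not tested, and the files do not settle the direction for Sxl.

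ovo and otu formed the next group. ovo (FBgn0003028, X:5048273-5070929) encodes a zinc finger transcription factor of the female germline that activates otu, and its locus also gives the somatic form known as shavenbaby, which these gene-level values do not separate. It had 6.91 FPKM (6.37 to 7.46) in the control library and 13.4 (12.6 to 14.3) in the Lsd1 library. Its log2 ratio was 0.87 (interval 0.74 to 1.001), above 96.0% of eligible genes. otu (ovarian tumor, FBgn0003023, X:8485008-8489535) encodes a deubiquitinase that works with Bam to stabilise Cyclin A. It had 13.0 FPKM (11.9 to 14.1) in the control library and 24.8 (23.1 to 26.4) in the Lsd1 library, the highest level of the 9 in each. Its log2 ratio was 0.88 (0.73 to 1.03), above 96.2% of eligible genes. The plain ratios of this transcription factor and its target were 1.95 and 1.90, and their log2 ratios differed by 0.01 (interval -0.19 to 0.21). By approximate fragments less their all-gene median they were less alike, ovo at 0.37 (0.23 to 0.52) and otu at 0.63 (0.47 to 0.78).

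Rbfox1 (FBgn0052062, 3L:10481412-10594012) encodes an RNA-binding protein whose cytoplasmic forms lower Pumilio in cysts and so let differentiation proceed. Its FPKM was 1.01 (0.76 to 1.27) in the control library and 1.74 (1.39 to 2.09) in the Lsd1 library, which do not overlap. The log2 ratio was 0.44 (0.18 to 0.71), or 0.78 without the added 1. S-Lap4 lies inside its locus of 112601 nt and was listed at 0 FPKM in the control and at 0.034 with Lsd1, which rests on about 1 fragment.

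stwl and pelo are needed to keep stem cells from being lost. stwl (stonewall, FBgn0003459, 3L:14402930-14409939) encodes a DNA-binding protein of germline chromatin. It had 1.31 FPKM (1.01 to 1.61) in the control library and 2.06 (1.66 to 2.46) in the Lsd1 library, just apart. Its log2 ratio was 0.40 (interval 0.14 to 0.67), above 60.6% of eligible genes. pelo (pelota, FBgn0011207, 2L:9700810-9708883) encodes a factor that frees stalled ribosomes. It had 3.53 FPKM (2.89 to 4.18) in the control library and 4.78 (3.97 to 5.59) in the Lsd1 library, and these bounds overlap. Its log2 ratio of 0.35 (0.06 to 0.64) was above 53.5% of eligible genes, the lowest of the 8. CG31710 lies inside the pelo locus and went from 1.56 to 2.70 FPKM, on 14.2 and 24.8 approximate fragments.

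**Figure D2:**
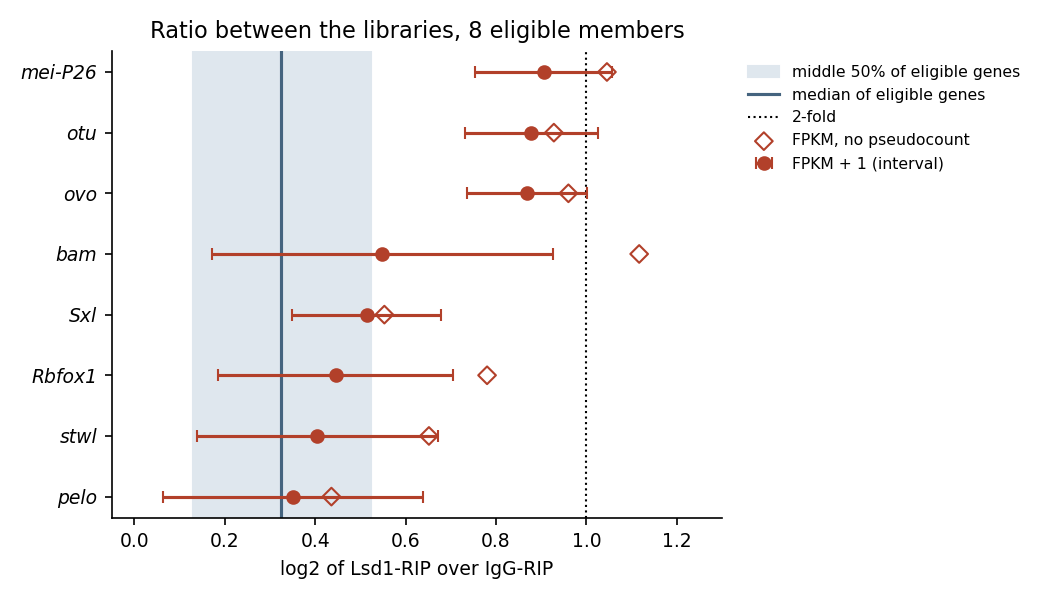
Log2 ratio of the Lsd1-RIP to the IgG-RIP library for the 8 eligible members, with 1 added to each FPKM (filled points, bars of 2 standard errors from the deposited bounds) and without (open diamonds). The shaded band holds the middle 50% of 6025 eligible genes around their median of 0.32, and mei-P26, otu and ovo lie to the right of it with their whole interval.

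For 7 of the 9 members the deposited bounds of the libraries did not overlap, each time with the Lsd1-RIP value higher. The same held for 36.1% of all eligible genes, while 1.64% were apart with the Lsd1-RIP value lower. Against the all-gene median of 0.32, the interval lay wholly above for 4 members, mei-P26, otu, ovo and Sxl, and spanned it for the other 4 eligible ones. For Sxl the fragment interval lay wholly below the median of that measure, from -0.54 to -0.18, so 3 members were above by both. The share of all eligible genes with an interval wholly above either median was not computed. These counts therefore have no background, and intervals are narrower for genes of more fragments. Without the added 1, bam and mei-P26 were at least 2-fold higher, 2 of 8 beside 8.75% of eligible genes listed above 0 in both libraries. bam reached the minimum mean FPKM only through its Lsd1-RIP value, so it stands in this count only through that library.

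The members differed among themselves along these lines. Of 28 pairs among the 8 eligible members, the interval of the difference in log2 ratio on the FPKM + 1 scale excluded 0 in 12. In each of the 12, mei-P26, otu or ovo was the higher gene and Sxl, stwl, Rbfox1 or pelo the lower. The widest was mei-P26 over pelo, by 0.56 (interval 0.23 to 0.88). Differences among mei-P26, otu and ovo were at most 0.04, with intervals from -0.18 to 0.24 for mei-P26 over otu and from -0.16 to 0.24 for mei-P26 over ovo. bam, with few fragments, could not be placed apart from any other member: mei-P26 exceeded it by 0.36 with an interval from -0.05 to 0.76. The added 1 shrinks ratios of low genes such as Rbfox1 and stwl, and pairs were not compared on other measures. By approximate fragments less their all-gene median, Rbfox1 was at 0.45 and ovo at 0.37.

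The 3 members with the highest ratios on the FPKM + 1 scale, and Sxl, lie on the X chromosome. The 1077 eligible genes of the X had a median ratio of 0.35, which is 0.027 above that of all eligible genes.

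Ratios in these libraries were higher for longer transcripts, so the members were also set beside genes of like length. Length here is that implied by fragments per FPKM, in 10 groups of equal size among the eligible genes listed above 0 in both libraries. The median ratio went from 0.15 in the shortest group to 0.57 in the longest, where 90.1% of genes had bounds apart with the Lsd1-RIP value higher. mei-P26 and ovo both belonged to the longest group. Less its median, they were at 0.34 and 0.30, above 90.1% and 88.6% of the genes in it. otu, in group 7 with a median of 0.34, was 0.54 above it and above 97.5% of that group. bam was 0.21 above the median of its group and Sxl 0.12 above. Rbfox1, pelo and stwl were at 0.024, 0.015 and -0.017, at the centre of genes of their length. For Sxl the implied length may be too small, since it rests on the same bounds.

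**Figure D3:**
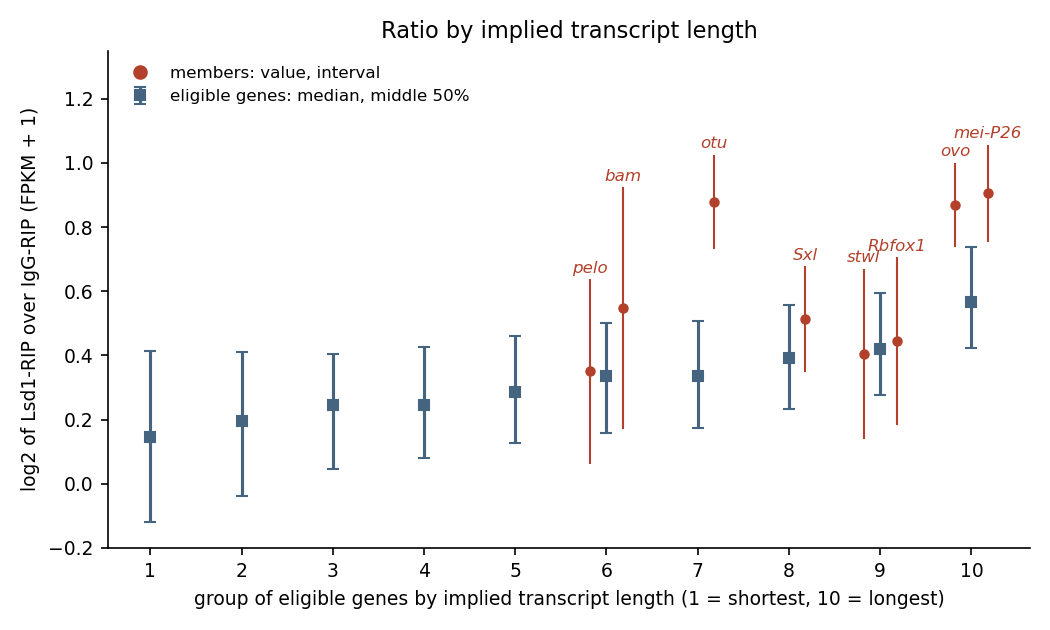
Log2 ratio of the Lsd1-RIP to the IgG-RIP library (FPKM + 1) by group of implied transcript length. Blue squares and bars are the median and middle 50% of the eligible genes in each of 10 groups, from 0.15 in the shortest to 0.57 in the longest, and red points with bars are the 8 eligible members with their intervals of 2 standard errors, offset sideways for clarity.

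Set beside genes of like level instead, otu was 0.64 above the median of its group when genes were divided into 10 groups by mean FPKM, ovo 0.62 and mei-P26 0.54. bam was at 0.26, Sxl at 0.26, Rbfox1 at 0.15, stwl at 0.11 and pelo at -0.028. By approximate fragments, which carry no added 1, bam was the highest at 0.69 above the all-gene median of that measure, but its interval ran from -0.11 to 1.49. Rbfox1 was at 0.45, with an interval from -0.018 to 0.91. otu was at 0.63 (0.47 to 0.78), mei-P26 at 0.52 (0.34 to 0.69) and ovo at 0.37 (0.23 to 0.52). These 3 were the only members whose fragment interval lay above that median, and the share of all eligible genes with such an interval was not computed. The fragments come from the same bounds as the intervals on FPKM and are no independent check.

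**Figure D4:**
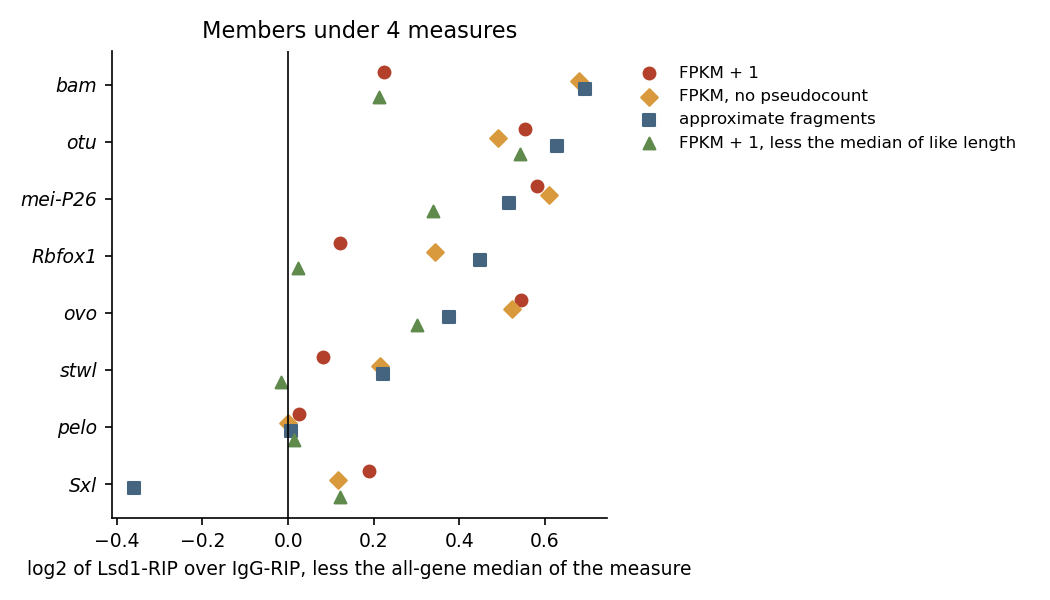
The 8 eligible members under 4 measures of the Lsd1-RIP to IgG-RIP ratio, each less its all-gene median or, for the green triangles, less the median of genes of like implied length. otu, mei-P26 and ovo lie at 0.30 or more under each, bam between 0.21 and 0.69, and Sxl is at -0.36 by approximate fragments only.

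The other genes of germline stem cell and cyst differentiation were taken from a list of 49, in 8 roles, all of which matched a symbol in the files. Of the 47 that were eligible, 34 were above the all-gene median, or 32 of 45 without vir and Dcr-1, which reached the minimum mean FPKM only through the Lsd1 library. Of the 47, 3 were at least 2-fold higher (6.38% beside 2.12% of all eligible genes) and 0 were 2-fold lower or more. Among eligible genes the 2-fold higher share ran from 0.168% to 5.36% over the groups by length, the latter in the longest. Over the groups by mean FPKM it ran from 0.831% to 4.31%, the latter in the highest. The list median was 0.53. It was 0.21 less the all-gene median, 0.11 less that of genes of like length, and 0.061 by approximate fragments less their all-gene median, by which 30 of 47 were above. The longest group held 12 of the 47. The list was written with earlier results of these data known, and part of it was already seen to be high in them.

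The 12 genes listed under translational repression and deadenylation were the highest role on the FPKM + 1 scale. All 12 were above the all-gene median there, with a median of 0.66. By approximate fragments less their all-gene median, Not3 and me31B were below, at -0.0043 and -0.056. bru1 and cup were at 0.0027 and 0.0038, and the rest of the role was higher. nos, whose product with Pumilio holds stem cells undifferentiated and whose mRNA is the target of the Bam, Bgcn, Mei-P26 and Sxl group, had 6.96 FPKM in the control library and 19.2 in the Lsd1 library, a log2 ratio of 1.34 (interval 1.15 to 1.54). It overlaps Nsun5, which had 85.0 approximate fragments in the control and was listed at 0 with Lsd1. nos also overlaps CG11779, with 192 fragments in the control and 179 with Lsd1. Summed fragments were 0.51 above the all-gene median for nos with Nsun5 and 0.52 for nos with CG11779. A sum over all of these loci was not made. Not1, the scaffold of the deadenylase complex, went from 5.81 to 14.8 FPKM (1.21, interval 1.10 to 1.32). orb, a regulator of poly(A) tail length, went from 13.2 to 28.3 (1.04, interval 0.91 to 1.18), but was only 0.051 above the median by fragments. Chosen after its values were seen, pum, the target of Rbfox1, went from 3.44 to 6.12 FPKM, a ratio of 0.68 (0.53 to 0.83).

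Among partners and switches of Bam and Bgcn, 4 of 6 eligible genes were above the median. CSN4, a COP9 signalosome subunit that Bam binds, was the lowest of the 47: 8.57 FPKM in the control library and 7.13 in the Lsd1 library, a ratio of -0.23 (interval -0.53 to 0.06). CycA, the Cyclin A gene whose product Bam and Otu stabilise, was also singled out afterwards. It went from 26.9 to 48.7 FPKM, a ratio of 0.83 (0.71 to 0.96), close to otu by FPKM, but 0.16 above the median by fragments.

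Of the Sxl cofactors and targets, 3 of 6 eligible genes were above the median, vir among them. tra, the splicing target of Sxl in the soma, had 2.45 and 2.12 FPKM in the control and Lsd1 libraries, a ratio of -0.15 (interval -0.78 to 0.48). snf, an snRNP protein that works with Sxl in splicing, had 11.2 and 10.4, a ratio of -0.10 (-0.45 to 0.25). Both intervals spanned 0. tra overlaps l(3)73Ah, which had more approximate fragments than tra in each library. By fragments less their all-gene median, tra alone was at -0.38, and tra summed with l(3)73Ah was at 0.16. The direction for tra therefore depends on how fragments of this locus were assigned, which was not tested. Beside pelo, the 3 ribosome rescue genes were below the median, pix, a recycling ATPase, with 31.5 and 30.004 FPKM and a ratio of -0.07 (-0.22 to 0.08). HBS1, the partner of Pelo, named after its value was seen, was at 0.27 (-0.06 to 0.61), a value that lies within the interval of pelo.

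Among chromatin and RNA factors of the stem cell state, 8 of 11 were above the median, Dcr-1 among them. E(bx), the large subunit of the NURF remodeller, went from 6.30 to 12.4 FPKM, a ratio of 0.88 (0.76 to 0.99), the highest of that role and the fourth of the whole list. For the fusome and cyst genes 4 of 5 were above the median, and for the genes of contact with the niche 3 of 3. The single gene beside ovo and otu, stil, was below it, at -0.051 (interval -0.50 to 0.40).

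**Figure D5:**
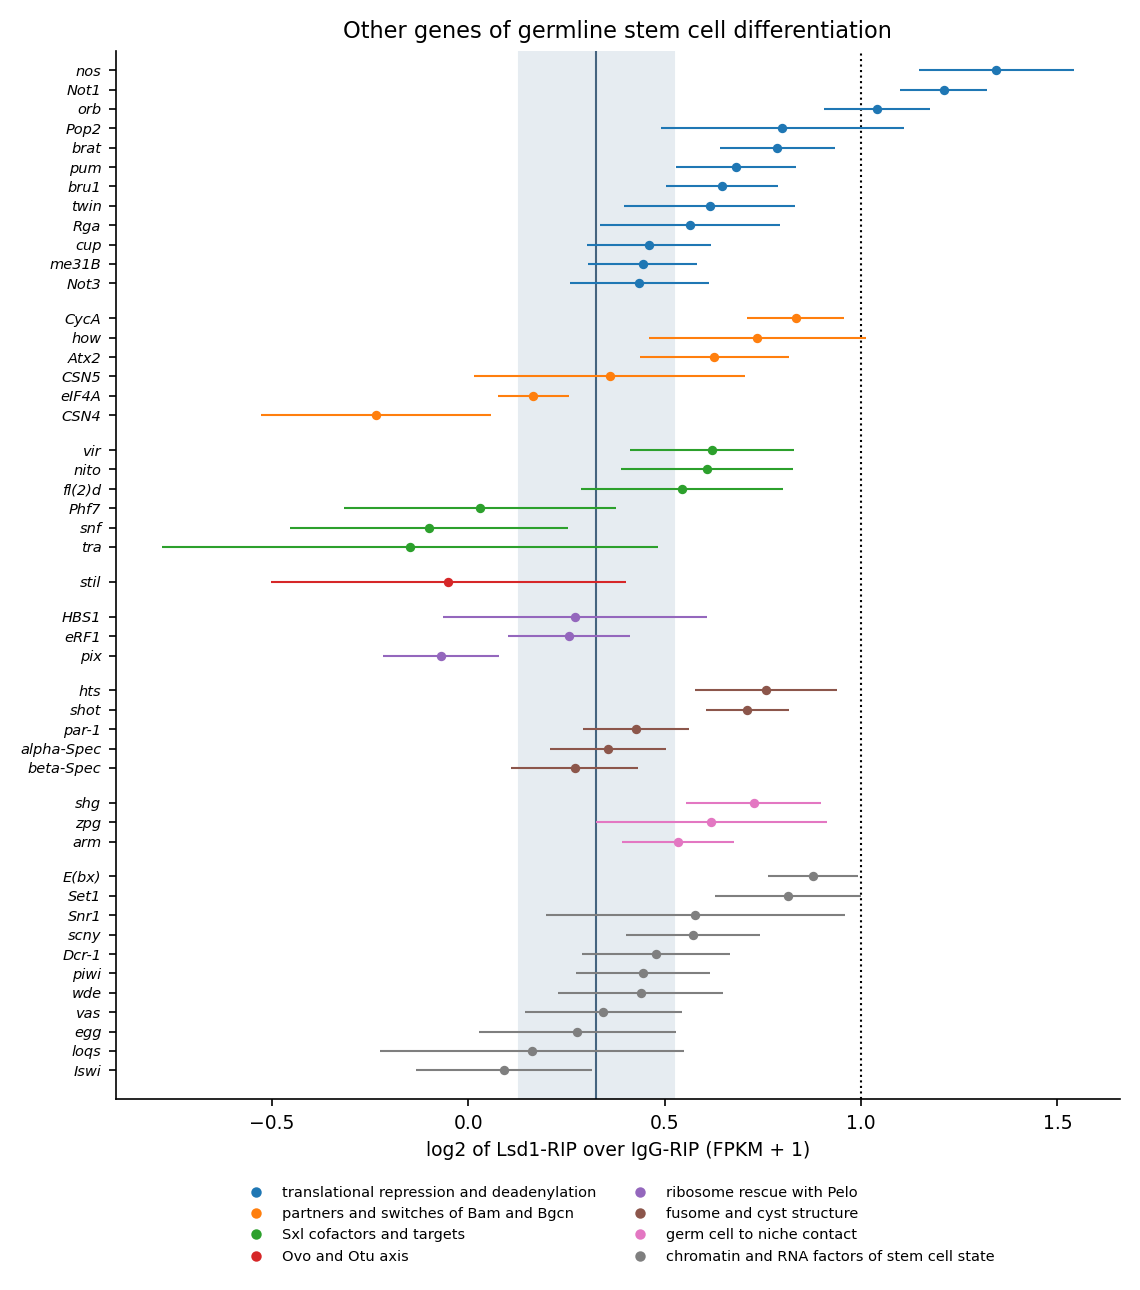
Log2 ratio of the Lsd1-RIP to the IgG-RIP library (FPKM + 1) for the 47 eligible genes of the wider list, coloured by role, with bars of 2 standard errors from the deposited bounds. The band and line are the middle 50% and median of all eligible genes and the dotted line marks 2-fold, which nos, Not1 and orb pass.

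Markers of cell types were also set side by side. The 6 germline markers summed to 153 FPKM in the control library and 274 in the Lsd1 library, most of it osk, at 91.9 and 165. By approximate fragments less their all-gene median, nos was at 0.93 and the other 5 lay between -0.017 for osk and 0.051 for orb. The value of nos was 0.51 when summed with Nsun5 and 0.52 when summed with CG11779, which overlap it. The 5 follicle cell markers summed to 207 and 261, and the 5 muscle sheath markers to 134 and 118. Of the muscle sheath markers, up went from 38.6 to 19.3 FPKM and Mhc and Tm2 were also lower with Lsd1. Act57B, from 56.0 to 62.8, and Mlc2, from 12.0 to 13.3, were higher. The escort and cap cell markers summed to 3.62 and 6.001, most of it LamC, and en was listed at 0 in both. vas, nos, orb and bru1 are in both the germline markers and the wider list. Of the tissues outside the ovary, the 3 fat body markers summed to 0.25 and 0.54 FPKM, the 3 neuron markers to 0.18 and 0.28 with Syt1 at 0 in both, and the 2 hemocyte markers to 0.12 and 0.14. Both sums in each pair come from the 1 divided lysate.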

How the data were processed

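RNA immunoprecipitates of ovary lysate were sequenced as 2 libraries, IgG-RIP and Lsd1-RIP. The authors deposited 1 table of FPKM per library, with a lower and upper bound and a status for each gene, per the file headers. Per the labels' protocols, a TruSeq RNA kit was used with poly(A) selection skipped. Cufflinks, SAMtools 0.1.18.0, Bowtie2 2.0.6.0 and dm6 are named in the submitters' processing notes, without roles. The gene annotation is not given in the sources used here. Loci start from 0 in the files and are given counted from 1.

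Tables were joined by gene and locus (Python 3.11.15, pandas 2.3.3, numpy 2.4.6). Bounds were taken as 2 standard deviations from the FPKM, and approximate fragments as the squared ratio of FPKM to that standard deviation. They are not exact: 41.7% of the 7225 values from 0.5 to 30 came within 0.02 of whole. They were scaled by their total without ribosomal RNA loci. Depth limits precision, and intervals cover no variation between precipitations. The computation was tested on simulated data. Their bounds were made from counting error alone by the same formula, so the simulation could not test uncertainty of isoform assignment. The FPKM + 1 scale understates ratios of low genes.

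Members and lists were chosen with earlier results of these data known. Named genes were the 9 members, genes overlapping them with at least 1 fragment or at 0 in 1 library only, and, in the wider list, those at least 2-fold changed with the 4 highest and 4 lowest. Genes of like pattern were not sought, since 2 libraries give 1 ratio. Alternatives covered the pseudocount, the minimum FPKM, scaling, fragments, length, level and overlapping loci. No sequences were used here.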

Additional observations from a re-analysis of the deposited data

How the results depend on the processing

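The median log2 ratio of the eligible members, 0.53 beside 0.32 over all eligible genes, was 0.82 beside 0.42 with a pseudocount of 0.1. With none it was 0.85 beside 0.44. Over the 4 members with a mean FPKM of 5 or more it was 0.87, beside 0.30 over all genes of that level. It was 0.21 centred on the all-gene median, 0.17 with the median of like length removed and 0.26 with that of like FPKM removed. The wider list, at 0.53, gave 0.21 centred, 0.11 with like length removed and 0.21 with like FPKM removed. By approximate fragments it gave 0.056, by fragments summed over overlapping loci 0.074, and by centred fragments, an alternative chosen after seeing the data, 0.061. Members at least 2-fold higher were 0 with a pseudocount of 1 and 2, bam and mei-P26, with 0.1 or none. Of all eligible genes, 2.12% were that high with a pseudocount of 1 and 7.9% with 0.1. With none it was 8.75% of those listed above 0 in both libraries. bam was eligible only through its Lsd1-RIP value. Of members above the all-gene median there were 8, and 4 of 4 at a mean FPKM of 5 or more. mei-P26, otu, ovo, bam and Rbfox1 stayed above the all-gene median under each alternative that gave them a value. Sxl was below it under the 3 alternatives built on fragments. pelo, less that median, was at -0.0011 with no pseudocount and at -0.028 with like FPKM removed, and stwl was at -0.017 with like length removed. No paired analysis was possible because there is 1 library per group, and no library could be left out. For bam and bgcn depth is the limit, with 19.9 and 2.44 approximate fragments in the IgG-RIP library.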
